A study of Mus musculus with 16 samples.

Results

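Mediator is the large multi-subunit complex that joins DNA-bound activators to RNA polymerase II at promoters, and it is the cofactor that activation domains of the VP16 type contact. A list of 32 mouse genes of its subunits, the kinase module included, was taken by gene symbol. Every array probe whose RefSeq accession maps to a gene of the list was followed. Probes were matched for 31 of the 32 genes, 49 probes in all, among 20968 genes named on the array. Med6 had no matched probe here. After the correction for uneven slides described below, 21 members were measured well enough for a test, among 11162 genes tested.

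The cells were mouse E14 embryonic stem (ES) cells kept in serum with LIF, a cytokine that holds them undifferentiated. They were transfected by lipofection with 1 of 4 plasmids, sorted by FACS for eGFP after 24 h, seeded again for 24 h and harvested at 48 h, so all 4 groups share the transfection and the sort. The EGFP group received eGFP without a TALE. In Ptn_VP64, Ptn_DEL and Ptn_Delta the plasmid coded for a TALE (an engineered protein that binds a chosen DNA sequence) directed to Ptn, the gene of the secreted growth factor pleiotrophin; it was joined to VP64, an activation domain made of repeats of a VP16 motif, or to DEL, an acidic peptide, while the labels do not state what Ptn_Delta carries. Expression was transient and measured on 4 single-colour arrays per group. These 4 are 2 biological and 2 technical replicates in an order that the labels do not give. Each p-value therefore rests on at most 2 samples per group, and can rest on 1 in a group where 2 arrays were left.

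As background, Mediator is built of modules with different tasks. The head and middle modules bind the polymerase and the general transcription factors, the tail is the landing site of many activators, Med14 is the scaffold that holds the modules together, and the separable kinase module (Cdk8 or its paralog Cdk19, cyclin C, Med12, Med13 or Med13l) keeps the polymerase off the core complex. In ES cells Mediator, together with cohesin, occupies the enhancers and promoters of the genes that hold the undifferentiated state. Its subunits are common to transcription of most protein-coding genes.

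The promoters of the members were read for short motifs, which their choice did not use. RefSeq windows (GRCm38.p6) from 250 bases before to 50 bases after the start were given for 27 of the 32 genes, 31 windows in all. The letters CCGGAAG, the core bound by ETS-family factors, searched on both strands, stood in 9 of the 31 windows (29.0%), against 11.6% of 21262 windows of protein-coding genes. It was the motif of the 7 searched with the widest gap to all windows, no test was made, and most member windows lacked it. Of the 9 windows, 2 belong to Med15 and overlap. The 8 genes with it were Med4, Med6, Med10, Med14, Med15, Med17, Med18 and Med19. The windows of the head subunit Med17 (chr9:15279857-15280156, minus strand), the scaffold Med14 (chrX:12761924-12762223, minus strand) and the middle subunit Med19 (chr2:84678152-84678451, plus strand) are shown as examples from 3 parts of the complex. Each runs 5′ to 3′ along the gene, with the match in capitals; in Med14 it lies on the opposite strand and reads CTTCCGG.
Med17: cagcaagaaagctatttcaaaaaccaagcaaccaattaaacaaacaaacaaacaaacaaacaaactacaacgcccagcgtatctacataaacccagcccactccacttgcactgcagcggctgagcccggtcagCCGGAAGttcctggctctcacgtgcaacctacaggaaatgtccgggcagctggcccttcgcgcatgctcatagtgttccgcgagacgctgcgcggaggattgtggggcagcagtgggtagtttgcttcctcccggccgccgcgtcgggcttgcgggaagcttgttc
Med14: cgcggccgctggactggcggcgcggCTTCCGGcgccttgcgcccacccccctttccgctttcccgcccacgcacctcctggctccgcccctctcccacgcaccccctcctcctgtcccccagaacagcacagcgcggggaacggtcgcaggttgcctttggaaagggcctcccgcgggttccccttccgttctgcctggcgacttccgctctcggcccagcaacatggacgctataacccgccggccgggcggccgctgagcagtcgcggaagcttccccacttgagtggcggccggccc
Med19: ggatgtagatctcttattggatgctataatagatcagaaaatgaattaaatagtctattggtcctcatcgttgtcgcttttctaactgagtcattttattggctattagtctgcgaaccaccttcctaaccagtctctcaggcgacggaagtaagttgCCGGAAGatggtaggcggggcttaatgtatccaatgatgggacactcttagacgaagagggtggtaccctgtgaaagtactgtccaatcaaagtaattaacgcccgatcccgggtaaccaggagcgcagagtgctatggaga
The match began 116 bases before the start in Med17, 225 in Med14 and 92 in Med19. Of the other motifs, CCAAT was in 38.7% of member windows and 38.2% of all windows, TATAAA in 9.68% and 12.6%, and GGGGCGGGG in 9.68% and 15.4%. TGACGTCA was in 3.23% (1 window) against 2.23%, and exact matches to the NRF1 and the YY1 consensus were in 0% of member windows, against 1.33% and 0.889% of all. The median number of CpG pairs in a window was 20 in members and 13 over all. These matches are a description of the letters in the window, and no binding was measured.

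The arrays differed in quality. The 75th percentile of the signal ran from 209.3 on EGFP replicate 2 to 1253 on Ptn_VP64 replicate 1, and the share of spots well above background from 27.1 to 43.8%. Broad dim and bright patches covered 1.32 to 39.6% of an array, and each array's local shift was subtracted and strong patches left out. The correlation of an array with the other arrays, as a median, was 0.678 to 0.867 before and 0.852 to 0.961 after, with EGFP replicate 2 the lowest after correction. Each slide held all 4 groups (replicates 1 and 2 on slide 1, replicates 3 and 4 on slide 2), but every group kept its own column on both slides, so construct and column cannot be told apart. Ptn itself was 4.09 ± 1.32 log2 units (SE) higher in Ptn_VP64 than in EGFP (limma over at most 2 samples a group, adjusted p 0.531). In Ptn_DEL and Ptn_Delta it was 0.15 and 0.11 units higher than in EGFP. All 12 ES cell markers had a probe well above background on at least 12 arrays. The same held for 2 of 8 fibroblast markers (Postn on no array), 1 of 6 endoderm, 4 of 7 trophoblast (Elf5 on no array), 2 of 6 neural (Neurog2 on no array) and 1 of 5 mesoderm markers.

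Nearly every member with a probe gave a signal well above background on most arrays. A probe well above background on all 16 arrays was found for 18 members, and on at least 12 arrays for 30 of the 31. The exception was Med13, a large kinase-module subunit that links the module to the core, whose single probe was well above background on 3 arrays. The closely related Med13l was above background on 12. These counts take the best of a member's probes, and 13 members had more than 1. The share of all genes that pass the same rule was not counted. Levels are given as the log2 of a spot's processed signal over its array's 75th percentile, and only values of the same probe are set against each other, because probes differ in brightness. Of 784 member spots, 125 were marked by the image software as uneven or outlying, and 561 (71.6%) were left after marked spots and strong patches were dropped. The plot of all members by array shows the gaps this left. Members without a test, besides Med6, were Med8, Med9, Med12, Med13, Med13l, Med15, Med20, Med21, Med22 and Med25. Each of these except Med13 had a probe that was well above background on at least 12 arrays but kept fewer than 2 arrays in some group.

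**Figure D1:**
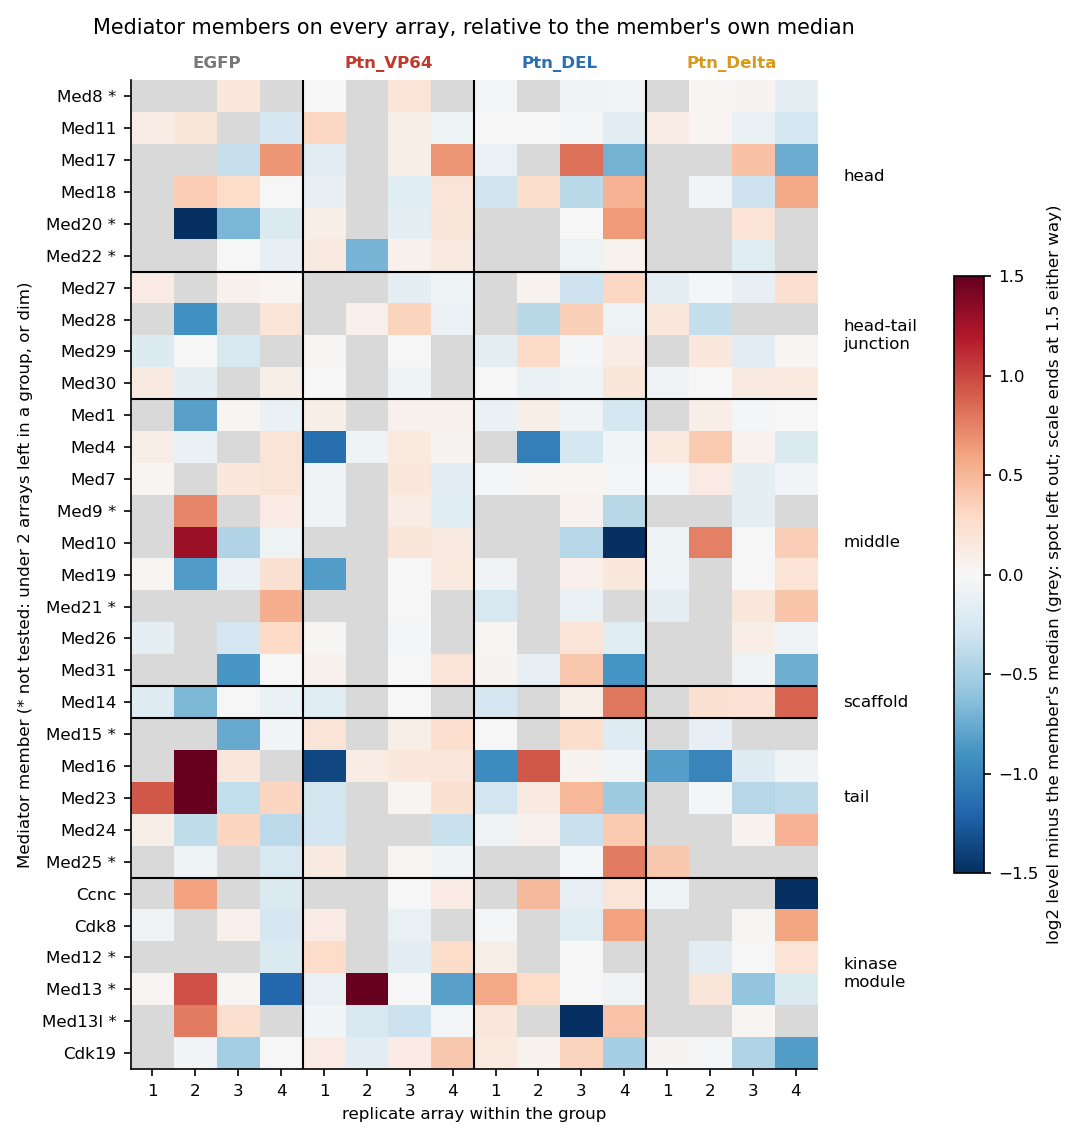
Each cell is the log2 level of a member on 1 array minus that member's median over all arrays, rows ordered by module and columns by group and replicate; grey cells were left out. Most rows are pale across all 4 groups, and the darkest cells are single arrays, such as Med10 on Ptn_DEL replicate 4, Ccnc on Ptn_Delta replicate 4 and Med23 on EGFP replicate 2.

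No Mediator subunit was called in any of the 6 comparisons between the groups by the test used here. A limma fit of the 16 unaveraged arrays with the replicate number as a block, which counts technical repeats as replicates, called 1 member, Ccnc in Ptn_VP64 minus Ptn_Delta (4.22, adjusted p 0.0178), and 1 in the F over the 4 groups. The RNA came from whole sorted cultures, so less RNA per cell and fewer cells of a kind cannot be told apart. A call was an adjusted p under 0.05 in limma over all 11162 genes. The arrays were averaged to at most 2 samples a group in each of 3 possible pairings, and the largest p was kept. In Ptn_VP64 minus EGFP, 0 of 21 members were called, where 3 genes in all (0.0269%) were. In Ptn_VP64 minus Ptn_DEL and minus Ptn_Delta 0 of 21 were called, against 0.00896% of all genes in each, and in Ptn_DEL minus EGFP, Ptn_Delta minus EGFP and Ptn_DEL minus Ptn_Delta 0 of 21, against 0.0% of all genes. A limma F over the 4 groups called 0 of 21, against 0.00896%. With the 16 arrays unaveraged, which counts technical repeats as replicates, 0 of 21 members were called in each comparison, while the shares over all genes were 3.06, 0.0179, 0.0269, 0.591, 0.564 and 0.0% in the order Ptn_VP64, Ptn_DEL and Ptn_Delta minus EGFP, Ptn_VP64 minus Ptn_DEL, Ptn_VP64 minus Ptn_Delta and Ptn_DEL minus Ptn_Delta.

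At an unadjusted p under 0.05 the count of members was also 0 of 21 in each of the 6 comparisons, where 7.75, 2.23, 2.60, 3.94, 4.69 and 0.116% of all genes lay under it in the same order. In the unaveraged limma fit 0, 1, 3, 1, 1 and 2 members lay under it, where 16.1, 7.93, 8.53, 10.3, 11.8 and 0.753% of all genes did. The members were centred near 0: their median difference from EGFP was 0.04 log2 units in Ptn_VP64, -0.01 in Ptn_DEL and 0.03 in Ptn_Delta, where the medians over all genes were -0.01, 0.02 and 0.03. Differences smaller than 0.5 log2 units were found for 18, 17 and 17 of the 21 members, and for 65.0, 75.5 and 74.3% of all genes.

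How closely a change was bounded differed between members. The 95% interval of the difference from EGFP lay within 1 log2 unit of 0, a factor of 2 either way, for 8 of 21 members in Ptn_VP64, 9 in Ptn_DEL and 9 in Ptn_Delta (38.1, 42.9 and 42.9%, against 21.1, 27.8 and 26.1% of all genes). For the other members a 2-fold change in at least 1 direction lay inside the interval. The plot of differences from EGFP shows narrow intervals for Med7, Med11 and Med30 and wide ones for Med10 and Ccnc.

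**Figure D2:**
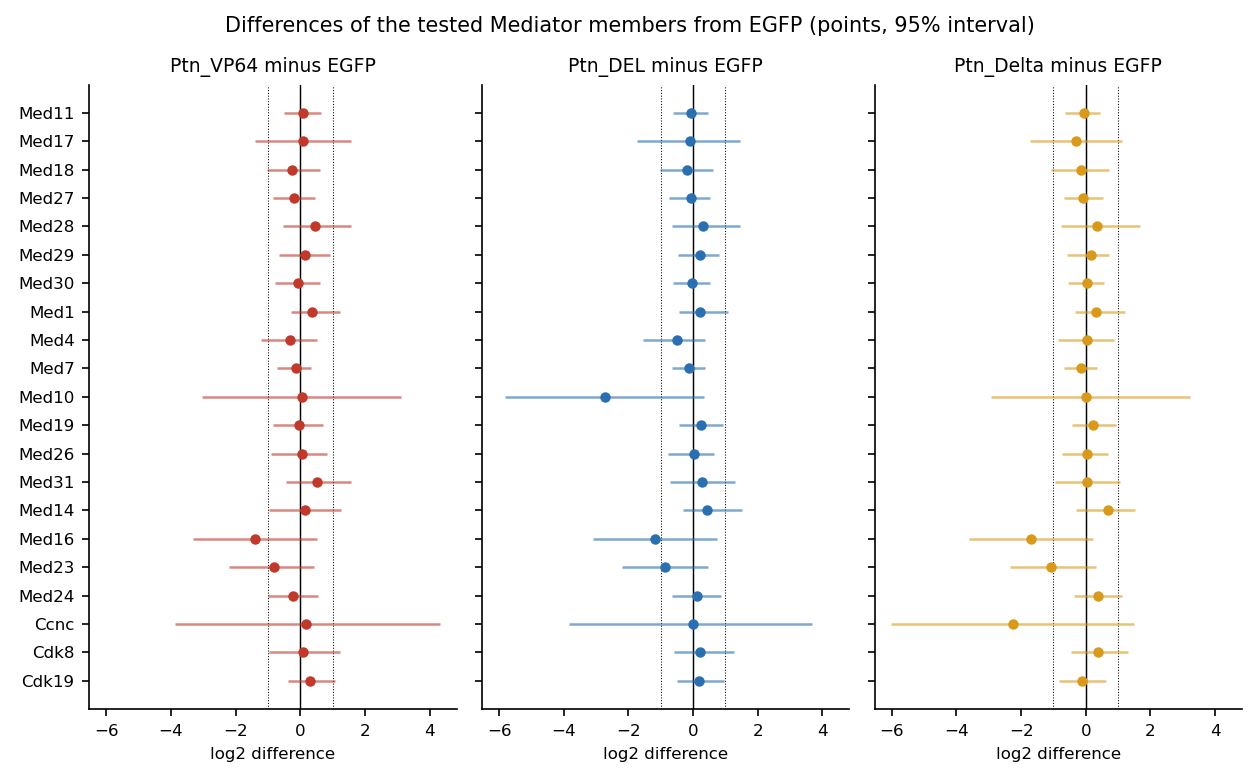
Points are log2 differences of each tested member from EGFP and lines the widest 95% interval over the 3 pairings, with dotted lines at 1 log2 unit either side of 0. Every interval reaches across 0, and the widest belong to Med10, Med16 and Ccnc.

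Med25, Med15 and Med17 are the subunits that VP16-type activation domains contact or were long named as contacting. Med25, whose activator-interaction domain binds VP16, had levels of 2.42 and 2.26 on the EGFP arrays left. Its levels were 2.63, 2.53 and 2.45 in Ptn_VP64, 2.47 and 3.28 in Ptn_DEL, and 2.91 on the 1 array of Ptn_Delta. All 3 Ptn_VP64 arrays lay above the 2 of EGFP, and with 1 array in Ptn_Delta Med25 was not tested. Such separation was common: 17.0% of all genes with at least 3 arrays in each of these groups did not overlap. For groups of 2 arrays the share was not counted. With marked spots kept, the Ptn_VP64 minus EGFP difference was -0.10 (95% interval -1.32 to 0.79, limma adjusted p 1.0).

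Med15, a tail subunit whose KIX domain binds activators, read 1.64 and 2.36 in EGFP. It read 2.59, 2.50 and 2.65 in Ptn_VP64, 2.40, 2.66 and 2.20 in Ptn_DEL, and 2.27 on the 1 array of Ptn_Delta. The Ptn_VP64 values were again above those of EGFP, which had 2 arrays, and no share over all genes was counted for groups that small. With marked spots kept the difference was 0.37 (95% interval -0.51 to 1.28, limma adjusted p 0.936). Med17, the central subunit of the head, read 1.69 and 2.70 in EGFP and 1.87, 2.12 and 2.70 in Ptn_VP64. It read 1.95, 2.86 and 1.33 in Ptn_DEL and 2.48 and 1.29 in Ptn_Delta. The groups of Med17 overlapped fully, and its differences from EGFP were 0.10 ± 0.59 (SE) in Ptn_VP64, -0.09 ± 0.59 in Ptn_DEL and -0.31 ± 0.59 in Ptn_Delta (limma adjusted p 1.0 in each).

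**Figure D3:**
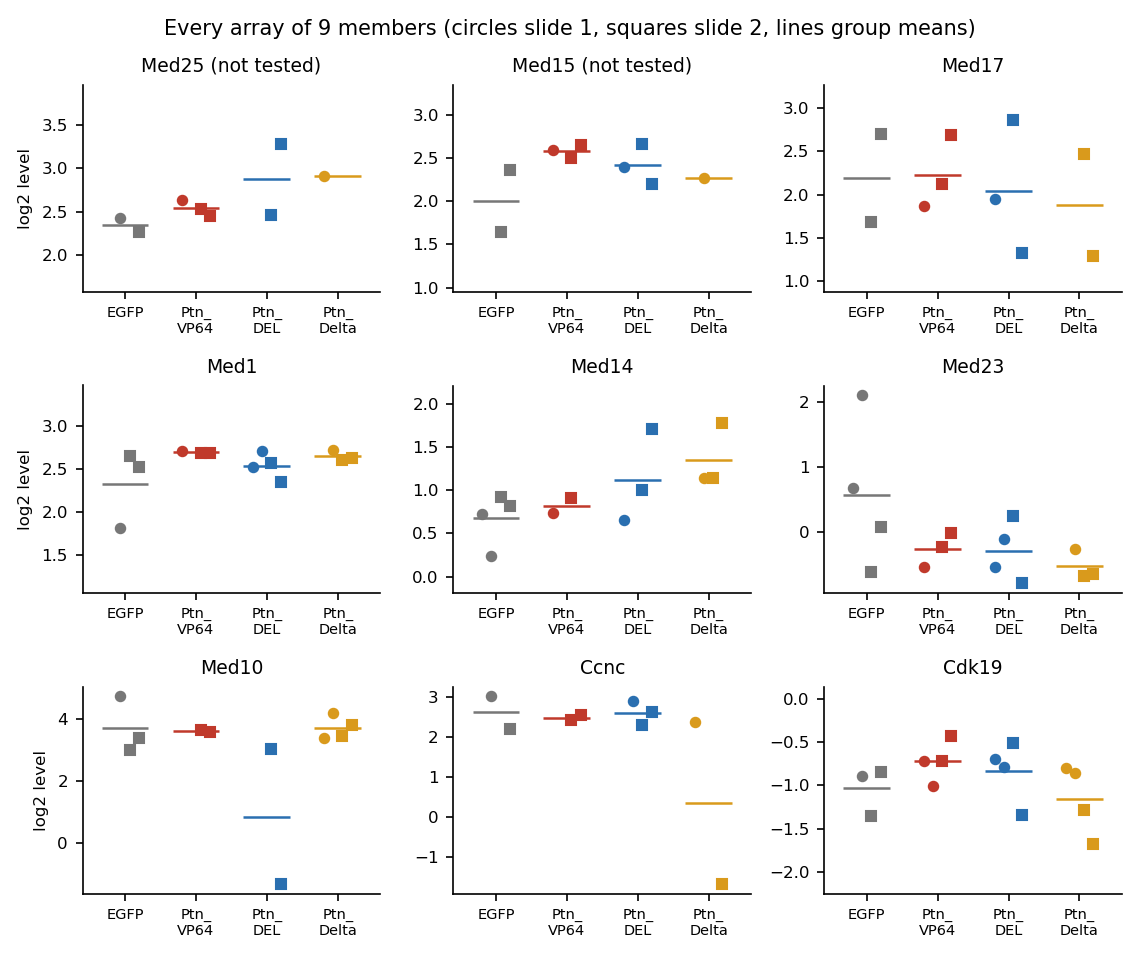
Log2 levels of 9 members on every array left, by group (circles slide 1, squares slide 2, lines the group means; y axes differ between panels). Med10 in Ptn_DEL and Ccnc in Ptn_Delta each show 1 array far below the rest, and Med23 shows EGFP replicate 2 far above.

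Of the kinase module, Cdk19, Cdk8 and Ccnc were tested. Cdk19, the paralog of Cdk8, read -0.89, -1.35 and -0.84 in EGFP and -0.71, -1.002, -0.72 and -0.43 in Ptn_VP64. It read -0.69, -0.79, -0.51 and -1.34 in Ptn_DEL and -0.80, -0.86, -1.29 and -1.68 in Ptn_Delta. The group means ran over 0.44 log2 units, with overlap between all groups, and Ptn_VP64 minus Ptn_Delta was 0.44 ± 0.28 (SE; 95% interval -0.23 to 1.11, limma adjusted p 1.0). Cdk8, the kinase of the module, read 3.23, 3.36 and 3.03 in EGFP and 3.40 and 3.17 in Ptn_VP64. It read 3.27, 3.10 and 3.88 in Ptn_DEL and 3.30 and 3.88 in Ptn_Delta, again with overlap. Its difference from EGFP was 0.08 ± 0.44 in Ptn_VP64, 0.21 ± 0.36 in Ptn_DEL and 0.39 ± 0.36 in Ptn_Delta. The other Cdk8 probes did not all point the same way in Ptn_VP64 minus EGFP, at 0.88 ± 0.42 and -0.63 ± 0.35.

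Ccnc codes for cyclin C, the partner that activates Cdk8 and Cdk19. Its brighter probe read 3.02 and 2.20 in EGFP, 2.42 and 2.54 in Ptn_VP64, and 2.90, 2.29 and 2.61 in Ptn_DEL. The Ptn_Delta arrays stood apart from each other at 2.36 and -1.67. The low one, replicate 4, made Ptn_VP64 minus Ptn_Delta 2.43 ± 1.29 and Ptn_DEL minus Ptn_Delta 2.26 ± 1.23 (limma adjusted p 1.0 in both), and without that array these were 0.33 and 0.35. In the unaveraged fit with the replicate block Ptn_VP64 minus Ptn_Delta was 4.22 and past the threshold (limma adjusted p 0.0178), and Ptn_DEL minus Ptn_Delta 4.13 (adjusted p 1.0); that fit includes the low array. The second Ccnc probe, which was well above background on 9 arrays, gave 0.34 ± 0.37 and -0.79 ± 0.37 for the same comparisons.

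Med12, the subunit that activates the kinase, had 1 probe well above background on 13 arrays and another on 0. The first read 0.05 on the 1 EGFP array left and 0.54, 0.11 and 0.54 in Ptn_VP64. It read 0.35 and 0.26 in Ptn_DEL and 0.09, 0.26 and 0.47 in Ptn_Delta, so the 3 TALE groups overlapped. Med13l read 0.14 and -0.41 in EGFP, -0.69, -0.89, -0.97 and -0.67 in Ptn_VP64, -0.47, -3.17 and -0.22 in Ptn_DEL, and -0.62 on the 1 array of Ptn_Delta. All 4 Ptn_VP64 values of Med13l lay below the 2 of EGFP, a separation whose share over all genes was not counted for 2 arrays. With marked spots kept the Ptn_VP64 minus EGFP difference was -0.53 (95% interval -2.47 to 1.54, limma adjusted p 1.0). Med13 read -3.11, -2.17, -3.12 and -4.31 in EGFP and -3.25, -0.16, -3.14 and -3.95 in Ptn_VP64. It read -2.56, -2.86, -3.14 and -3.19 in Ptn_DEL and -2.95, -3.72 and -3.36 in Ptn_Delta. These values are at or near background, and no fold is given.

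Of the head subunits, Med11, Med17 and Med18 were tested and none was called. Med11, a small head subunit, had group means of 2.29 ± 0.23 in EGFP (SD, n = 3), 2.38 ± 0.20 in Ptn_VP64 (n = 3), 2.23 ± 0.08 in Ptn_DEL (n = 4) and 2.22 ± 0.16 in Ptn_Delta (n = 4). The interval of its Ptn_VP64 minus EGFP difference, -0.52 to 0.64, was among the narrow ones. Med18, which forms a movable part of the head with Med20, had means of 1.56 ± 0.20 (n = 3), 1.30 ± 0.20 (n = 3), 1.36 ± 0.45 (n = 4) and 1.41 ± 0.45 (n = 3) in the same order. Med20 itself kept 1 array in Ptn_Delta (2.34) and read 0.36, 1.45 and 1.93 in EGFP, 2.24, 1.99 and 2.32 in Ptn_VP64, and 2.14 and 2.78 in Ptn_DEL. All 3 EGFP values of Med20 lay below every other array, the lowest on EGFP replicate 2, the array with the smallest 75th percentile. In Ptn_VP64 minus EGFP 17.0% of all genes with at least 3 arrays in each group did not overlap. The part of array quality in the Med20 values was not tested. Med22 ranged from 1.24 to 2.08 over 9 arrays. Its 4 Ptn_VP64 arrays, 1.24 to 2.08, spanned the 2 of EGFP, at 1.82 and 1.94, and the 2 of Ptn_DEL, at 1.87 and 2.00, and its 1 array of Ptn_Delta read 1.76. The brighter Med8 probe ranged from 4.35 to 4.69 over 9 arrays, while its second probe was well above background on 0. With marked spots kept, Med8 was -0.57 (95% interval -1.37 to 0.27), -0.71 (-1.48 to 0.14) and -0.68 (-1.44 to 0.19) against EGFP in Ptn_VP64, Ptn_DEL and Ptn_Delta (limma adjusted p 0.853, 1.0 and 1.0). The 1 unmarked EGFP array left, 4.65, lay within the range of Ptn_VP64. It lay above the arrays of Ptn_DEL (4.447 to 4.472) and of Ptn_Delta (4.347 to 4.532). The direction turned without patch correction, where Med8 was 0.68, 0.97 and 0.78 against EGFP (limma adjusted p 1.0, 1.0 and 0.98).

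The subunits at the junction of head and tail are Med27, Med28, Med29 and Med30. Med30 had means of 4.33 ± 0.15 in EGFP (SD, n = 3), 4.27 ± 0.05 in Ptn_VP64 (n = 2), 4.31 ± 0.12 in Ptn_DEL (n = 4) and 4.36 ± 0.10 in Ptn_Delta (n = 4), a range of 0.09 log2 units or 1.06-fold. By its brighter probe Med27 had means of 3.00 ± 0.04 (n = 3), 2.81 ± 0.05 (n = 2), 2.94 ± 0.31 (n = 3) and 2.91 ± 0.17 (n = 4), and Ptn_VP64 minus EGFP was -0.19 ± 0.25 (SE). The second Med27 probe, with a within-group SD of 0.90, gave -1.58 ± 0.79 for it (95% interval -3.85 to 0.78, limma adjusted p 0.883). Med29 had means of 3.27 ± 0.13 (n = 3), 3.43 ± 0.02 (n = 2), 3.48 ± 0.18 (n = 4) and 3.42 ± 0.17 (n = 3). For the brighter Med27 probe, Med29 and Med30 the 95% interval from EGFP stayed within 1 log2 unit in all 3 TALE groups. Med28 was less even, with a difference of 0.46 ± 0.42 in Ptn_VP64 minus EGFP. It was read from 2 EGFP arrays, at 2.71 and 3.81. Another Med28 probe, brighter but with 1 EGFP array left, pointed the other way and was not tested. It read 4.34 in EGFP, 3.33 and 3.91 in Ptn_VP64, 3.80 to 3.90 in Ptn_DEL and 3.68 to 3.92 in Ptn_Delta.

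By module, the median difference from EGFP in Ptn_VP64, Ptn_DEL and Ptn_Delta was 0.09, -0.09 and -0.15 over the 3 head subunits tested, 0.05, 0.09 and 0.09 over the 4 at the junction, and 0.04, 0.04 and 0.05 over the 7 of the middle. It was 0.16, 0.19 and -0.13 over the 3 of the kinase module and -0.82, -0.86 and -1.09 over the 3 of the tail, which are the values of Med23, between those of Med24 and of the saturated Med16 probe. With marked spots kept the tail median, over all 5 of its members, was -0.53, -0.15 and 0.34, so that in Ptn_Delta it turned. In that fit 26 members were tested and their median was -0.01, -0.02 and -0.06, with 0 of 26 called in limma and 0, 0 and 2 at an unadjusted p under 0.05. In the middle module, Med7, a subunit of the flexible hinge, was the steadiest of the 21 tested members: its within-group SD was 0.10 log2 units, and its group means ran from 4.11 in Ptn_Delta to 4.26 in EGFP. Med26, which can hand the polymerase to elongation factors, had the narrowest range of group means, 2.40 to 2.46 (1.04-fold). Med19 had means of 1.88 ± 0.47 in EGFP (SD, n = 4), 1.83 ± 0.53 in Ptn_VP64 (n = 3), 2.12 ± 0.11 in Ptn_DEL (n = 3) and 2.10 ± 0.14 in Ptn_Delta (n = 3). Its arrays read 2.08, 1.21, 1.95 and 2.28 in EGFP, 1.22, 2.05 and 2.21 in Ptn_VP64, 2.00, 2.13 and 2.21 in Ptn_DEL and 1.99, 2.05 and 2.25 in Ptn_Delta, so 1 low array stood in each of EGFP and Ptn_VP64. Ptn_DEL minus EGFP was 0.23 ± 0.28 for Med19 (SE; limma adjusted p 1.0), and 0.0099 without EGFP replicate 2.

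Med1, the subunit that nuclear receptors contact, read 1.81, 2.65 and 2.53 in EGFP and 2.71, 2.69 and 2.69 in Ptn_VP64. It read 2.53, 2.71, 2.57 and 2.36 in Ptn_DEL and 2.72, 2.61 and 2.62 in Ptn_Delta. Compared were 8 members, by the probe that stands for each gene and with at least 3 arrays in each group. Med1 was the 1 whose Ptn_VP64 arrays all lay above those of EGFP, where 17.0% of all genes so measured did not overlap. The difference was 0.37 ± 0.28 (SE; 95% interval -0.29 to 1.23, limma adjusted p 0.932), and 0.09 without EGFP replicate 2. With the authors' series values it turned to -0.12. The other probes of Med1 that passed the filter did not all share its sign, with differences of -0.59 and -0.04 for 2 of the 3. The third, well above background on 10 arrays, shared it. It read 0.08 to 1.37 in Ptn_VP64 (n = 4), above EGFP at -0.315 to 0.05 (n = 3).

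Med31, a middle subunit conserved from yeast, read 0.98 and 1.86 in EGFP and 1.92, 1.86 and 2.05 in Ptn_VP64. It read 1.90, 1.74, 2.27 and 0.98 in Ptn_DEL and 1.81 and 1.13 in Ptn_Delta. Ptn_VP64 minus EGFP was 0.51 ± 0.42 (SE; 95% interval -0.45 to 1.56, limma adjusted p 0.915), and 0.07 without EGFP replicate 3 or 0.95 without EGFP replicate 4. The direction turned without patch correction (-0.61) and with the authors' series values (-0.72). Med4, of the same module, read 0.12, -0.08 and 0.22 in EGFP and -1.11, -0.04, 0.17 and 0.06 in Ptn_VP64. It read -0.998, -0.24 and -0.01 in Ptn_DEL and 0.18, 0.42, 0.08 and -0.20 in Ptn_Delta. Ptn_DEL minus Ptn_Delta was -0.54 ± 0.34 for Med4 (SE; 95% interval -1.55 to 0.30, limma adjusted p 1.0), with overlap between the groups. It was -0.28 without Ptn_DEL replicate 2, and turned to 0.86 without patch correction and to 1.09 with the authors' series values. A brighter Med4 probe kept 1 EGFP array, so the dimmer one stood for the gene. The brighter probe had means of 4.13 in EGFP (n = 1), 4.11 in Ptn_VP64 (n = 2), 4.11 in Ptn_DEL (n = 3) and 4.30 in Ptn_Delta (n = 2).

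Med10, another middle subunit, read 4.76, 3.01 and 3.38 in EGFP, 3.64 and 3.59 in Ptn_VP64, and 3.39, 4.21, 3.46 and 3.82 in Ptn_Delta. Of its 2 Ptn_DEL arrays, 1 read 3.03 and the other, replicate 4, -1.35. The low spot was unmarked and well above background. The fitted differences, -2.73 ± 1.27 in Ptn_DEL minus EGFP, 2.77 ± 1.27 in Ptn_VP64 minus Ptn_DEL and -2.74 ± 1.27 in Ptn_DEL minus Ptn_Delta (limma adjusted p 1.0 in each), were the largest of any member, and without that array they were -0.54, 0.58 and -0.54. Med9 read 3.18 and 2.57 in EGFP, 2.40, 2.56 and 2.27 in Ptn_VP64, 2.50 and 2.04 in Ptn_DEL and 2.32 in Ptn_Delta. Med21, which pairs with Med7 in the hinge, read 4.86 in EGFP, 4.31 in Ptn_VP64, 4.07 and 4.20 in Ptn_DEL and 4.17, 4.48 and 4.73 in Ptn_Delta. For both the highest value was an EGFP array, and neither kept enough arrays for a test.

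Med14, the scaffold, read 0.73, 0.24, 0.92 and 0.82 in EGFP and 0.73 and 0.91 in Ptn_VP64. It read 0.66, 1.00 and 1.71 in Ptn_DEL and 1.14, 1.14 and 1.78 in Ptn_Delta. Every Ptn_Delta array lay above every EGFP array, where 8.51% of all genes did not overlap. It was the 1 case among 13 members compared by the probe that stands for each gene. Ptn_Delta minus EGFP was 0.68 ± 0.37 (SE; 95% interval -0.29 to 1.53, limma adjusted p 1.0). The other Med14 probes gave 0.01 ± 0.39 and 0.22 ± 0.27 for it, and without the patch correction the sign was the opposite, -0.92, as with the authors' series values, -0.93. Ptn_DEL minus EGFP was 0.44 ± 0.37, or 0.15 without Ptn_DEL replicate 4. Ptn_VP64 minus Ptn_DEL was -0.30 ± 0.45, and -0.01 without that array; Ptn_VP64 minus Ptn_Delta was -0.53 ± 0.45, which turned to 0.59 without patch correction.

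In the tail, Med23, which some growth-factor-driven activators contact, was lower than EGFP in all 3 TALE groups by its means. Its arrays read 0.68, 2.10, -0.62 and 0.07 in EGFP, -0.53, -0.24 and -0.02 in Ptn_VP64, -0.54, -0.11, 0.24 and -0.79 in Ptn_DEL, and -0.26, -0.67 and -0.64 in Ptn_Delta. The groups overlapped: the 3 arrays of Ptn_VP64 lay within the range of EGFP, while 1 array of Ptn_DEL and 2 of Ptn_Delta lay below its lowest. The differences were -0.82 ± 0.52 (SE) in Ptn_VP64, -0.86 ± 0.52 in Ptn_DEL and -1.09 ± 0.52 in Ptn_Delta (limma adjusted p 0.824, 1.0 and 1.0), and without EGFP replicate 2 they were -0.31, -0.34 and -0.57. On slide 2 alone Ptn_VP64 minus EGFP turned to 0.14, and to 0.021 with a patch limit of 0.5 log2 units.

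Med24, which stands next to Med23 in the tail, read 1.41, 0.95, 1.64 and 0.93 in EGFP and 1.04 and 0.99 in Ptn_VP64. It read 1.27, 1.38, 0.98 and 1.72 in Ptn_DEL and 1.38 and 1.84 in Ptn_Delta. Its differences were 0.37 ± 0.31 (SE) in Ptn_Delta minus EGFP, -0.32 ± 0.31 in Ptn_VP64 minus Ptn_DEL and -0.59 ± 0.31 in Ptn_VP64 minus Ptn_Delta (limma adjusted p 1.0 in each), while its second probe gave -0.19 ± 0.27, -0.14 ± 0.27 and 0.09 ± 0.27. The brighter probe of Med16, a tail subunit beside Med23 and Med24, was saturated on 12 arrays. These were 1 of EGFP, 3 of Ptn_VP64, all 4 of Ptn_DEL and all 4 of Ptn_Delta. A saturated spot reports the scanner's ceiling over the array's 75th percentile, here less the array's local shift. The probe read 8.54 and 6.50 in EGFP and 4.98, 6.45, 6.50 and 6.51 in Ptn_VP64. In Ptn_DEL it read 5.39, 7.27, 6.38 and 6.29, and in Ptn_Delta 5.51, 5.35, 6.14 and 6.29. Most of these readings were at the ceiling and at least 1 of EGFP was not, so the probe gives no fold. The fit on it gave -1.41 ± 0.74 for Ptn_VP64 minus EGFP and -1.70 ± 0.74 for Ptn_Delta minus EGFP (limma adjusted p 0.779 and 1.0). The second Med16 probe, with no saturated array, gave -0.01 ± 0.32 and 0.17 ± 0.32.

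Between the TALE groups the picture was the same. By the probe that stands for its gene, no tested member but Med10 and Ccnc differed by more than 0.59 log2 units. The comparisons were Ptn_VP64 minus Ptn_DEL, Ptn_VP64 minus Ptn_Delta and Ptn_DEL minus Ptn_Delta. In these, Med1 was 0.15 ± 0.28 higher in Ptn_VP64 than in Ptn_DEL, and Cdk19 0.32 ± 0.28 higher in Ptn_DEL than in Ptn_Delta (SE, limma adjusted p 1.0 in both). The first turned to -0.33 without patch correction, and the second was 0.15 without Ptn_Delta replicate 4. By that probe, no member with at least 3 arrays in each group was separated. The counts were 0 of 12, 0 of 9 and 0 of 13, where 14.2, 17.5 and 1.85% of all genes did not overlap. Other probes were separated in places. The dimmest Cdk8 probe read -0.58 to -0.39 in Ptn_VP64, below Ptn_DEL (-0.23 to 0.55), Ptn_Delta (0.28 to 0.67) and EGFP (lowest -0.35). Another Cdk8 probe was above Ptn_Delta instead, at 2.415 to 2.5 in Ptn_VP64 against 1.34 to 2.07. It was also above the 2 EGFP arrays left, at 1.31 and 1.86. A dimmer Med1 probe read 0.08 to 1.37 in Ptn_VP64, above EGFP (-0.315 to 0.05). Of all genes with at least 3 arrays in each group, 17.0% did not overlap in Ptn_VP64 minus EGFP. In Ptn_DEL minus EGFP the count by the probe that stands for each gene was 0 of 15, against 6.72%. The second Ccnc probe read -1.21 to -0.60 in Ptn_DEL, below EGFP (-0.26 to 0.22). The second Med24 probe read 0.78 to 1.05 in Ptn_Delta, below EGFP (1.07 to 1.08), where 8.51% of all genes did not overlap. The 3 comparisons with EGFP share its 4 arrays.

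The within-group SD of the 21 members had a median of 0.36 log2 units and ran from 0.10 (Med7) to 1.31 (Ccnc); over all genes the median was 0.43. The range of the 4 group means had a median of 0.38 units in the members and 0.56 over all genes. On each array, the median deviation of the members measured there from their own medians lay between -0.06 and 0.13. The highest was on Ptn_VP64 replicate 4, and over all genes the range was -0.08 to 0.03. Ptn_VP64 replicate 2 had 4 members measured, against 11 to 21 on the other arrays.

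The partners of Mediator were looked at as lists. RNA polymerase II, which Mediator positions, had 7 of 12 subunits tested and 0 called in Ptn_VP64 minus EGFP, with a median difference of -0.03; Polr2i was -0.89 ± 0.30 (SE; limma adjusted p 0.521) and Polr2c -0.45 ± 0.26 (0.841). The general transcription factors, which assemble with the polymerase, had 25 of 31 tested, 0 called and a median of 0.06, with Taf9 at -0.90 ± 0.54 (limma adjusted p 0.919) and Taf3 at 0.43 ± 0.36 (0.935). The other cofactors that VP16-type domains contact had 9 of 11 tested, 0 called and a median of -0.04. Ep300, a histone acetyltransferase, was at 0.91 ± 0.33 (limma adjusted p 0.604), and Trrap, a scaffold of acetyltransferase complexes, at 0.55 ± 0.42 (0.929).

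Cohesin and its loader, which act with Mediator at ES cell enhancers, had 8 of 10 tested, 0 called and a median of 0.12, with Stag1 at 0.56 ± 0.28 (SE; limma adjusted p 0.698) and Wapl, which releases cohesin, at -0.77 ± 0.55 (0.906). Elongation factors had 9 of 16 tested, 0 called and a median of 0.10, with Nelfcd at -0.54 ± 0.38 (SE; limma adjusted p 0.978). In the other 5 comparisons each of these 5 lists also had 0 members called, and their medians lay between -0.12 and 0.18. Over all genes the calls were those given above, 0.0269% at most. The plot of modules and partners sets their differences side by side.

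**Figure D4:**
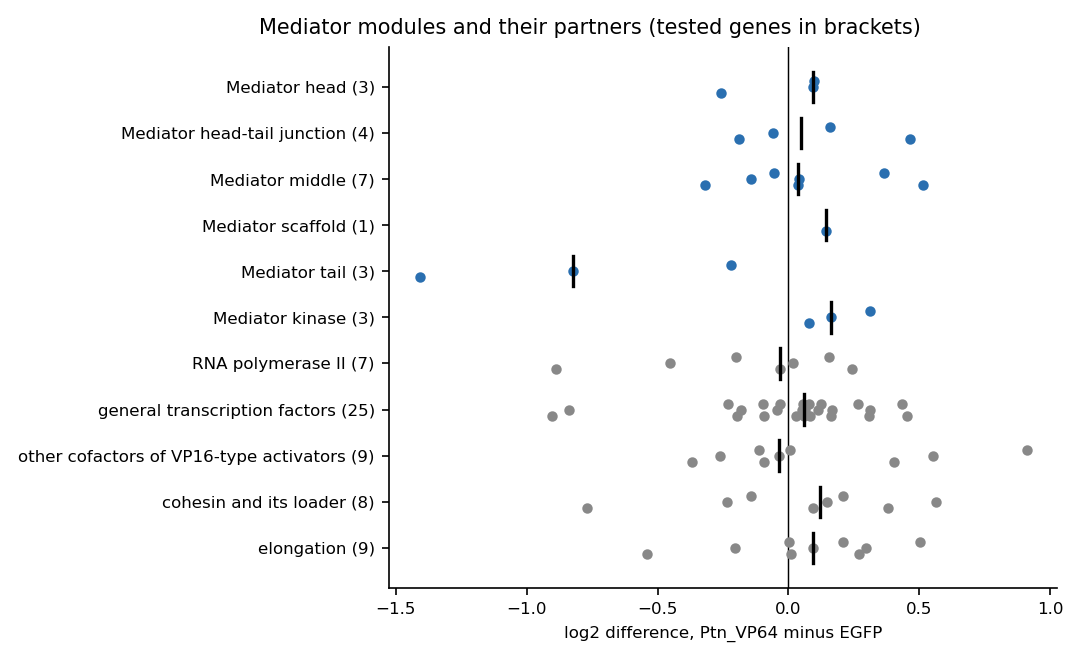
Each point is the log2 difference of 1 tested gene in Ptn_VP64 minus EGFP, with vertical bars at the list medians; Mediator modules are blue and partner lists grey. List medians lie close to 0 except the tail, whose 3 tested genes are Med16 (saturated), Med23 and Med24.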

How the data were processed

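The values start from the Feature Extraction tables deposited for the 16 arrays. Per the file headers they were made with Agilent Feature Extraction 11.5.1.1 from a single-colour Cy3 protocol, and the processed signal is an intensity from which that software had taken background and spatial trend, with no scaling between arrays. Raw intensity, per the file headers, is what the median spot and background signals hold. As an alternative served the authors' series values, deposited as log2, with the same quantiles on every array. Probes were named through RefSeq accessions and a gene table of GRCm38.p6 (27650 of 55681 probes had 1 symbol); the array annotation is of another build, so probe positions are not given.

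The log2 level is the log2 processed signal minus that of the array's 75th percentile over 59305 non-control spots. Patch correction subtracted, for each spot, the median difference of the array from the 16-array median in a window of 21 by 21 spots, over 17800 reference spots, and left out spots whose shift was over 1 log2 unit away from that array's median. Spots marked as non-uniform or population outliers were left out. Probes well above background on at least 4 arrays with at least 2 arrays left per group were kept, and the brightest stood for its gene. Arrays were averaged to at most 2 samples per group in each of the 3 possible pairings. Where 2 arrays were left in a group, 1 pairing put both in the same sample. The averages were fitted with limma 3.58.1 (lmFit, eBayes, 2-sided, all 4 groups, slide as a term where it does not cancel). The difference is the mean of the 3 fits, the p and SE the largest, and the 95% interval the widest span. Benjamini-Hochberg adjustment ran over all genes, and the fits were tested on simulated data. The number of arrays limits the precision.

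The members, the lists and the patch correction were chosen with earlier results of these data known. Array values are given for members past the threshold (none was), for Med25, Med15, Med17 and the kinase module, and for the 2 members with the smallest p among higher and among lower in each comparison; for each partner list the 2 genes with the smallest p in Ptn_VP64 minus EGFP are named. The normexp alternative used the median spot signal, because the tables hold no mean signal. A total of 7 motifs were searched. Unmatched to a probe were Med6, Polr2a, Polr2d, Taf1, Taf4a and Supt4a. One gene that the rule for named genes of the partner lists picks is not reported here.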

Additional observations from a re-analysis of the deposited data

Results flagged for a closer look

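In 26 groups of 4 arrays compared, the highest or lowest array of 3 stood further from the rest than Dixon's 95% limit for 4 values, where chance flags about 1 in 20. Med11 read 2.11 on Ptn_DEL replicate 4, below 2.26 to 2.29 on the other arrays of the group. Med4 read -1.11 on Ptn_VP64 replicate 1, below -0.04 to 0.17. The brighter probe of Med16, saturated on 3 of the 4 Ptn_VP64 arrays, read 4.98 on Ptn_VP64 replicate 1, below 6.45 to 6.51. That array had the highest 75th percentile of the signal, 1253, by which its signals were divided. The part of this in the low reading was not tested.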

How the results depend on the processing

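Comparisons are given in the order C1 Ptn_VP64, C2 Ptn_DEL and C3 Ptn_Delta minus EGFP, C4 Ptn_VP64 minus Ptn_DEL, C5 Ptn_VP64 minus Ptn_Delta and C6 Ptn_DEL minus Ptn_Delta. The count of Mediator members called stayed at 0 in C1 to C6 and the F under every alternative, and with any 1 array left out, except with the replicate block. Same-numbered arrays share slide and row, and 19 of 24 such pairs correlated above 0.1 (-0.04 to 0.58; other pairs -0.38 to 0.25); as not every pair did, the numbers were not taken to pair the samples. A fit of the 16 unaveraged arrays with a replicate block called 1 member in C5 (Ccnc, 4.22, limma adjusted p 0.0178), 1 in the F, and 624, 8, 7, 242 and 233 genes in C1 to C5; member medians were 0.13 in C1 and 0.073 in C4, and Ptn was 4.67 and past the threshold. The unaveraged fit with a slide term called 341, 2, 3, 66 and 63 genes, with Ptn at 4.26 and past the threshold.

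Genes called in C1, C4 and C5, 3, 1 and 1, were 0 in each without patch correction, with normexp, with the authors' series values, with no filter, with a filter of 12 arrays and on slide 1; 1, 0 and 0 with quantile normalization; 11 in C1, 1 in C2, 2 in C3, 2 in C5 and 1 in C6 on slide 2; 1 in C1 with windows of 11 or 41 spots and limits of 0.5 or 1.5; and 0 in C4 and C5 with marked spots kept. Leaving out 1 array gave 0 to 3, 0 to 2 and 0 to 2, with 0 in C1 without EGFP replicate 1, Ptn_VP64 replicate 1 or Ptn_VP64 replicate 4.

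The members' median was 0.28, -0.28, -0.16, 0.12 and 0.53 in C2 to C6 without patch correction, where all genes had 0.26, 0.28, -0.15, -0.16 and -0.05. It was -0.10, -0.23, -0.19, 0.31 and 0.51 in C1 and C3 to C6 with the authors' series values, and in C2 and C3 0.15 and 0.17 (normexp) and 0.089 and 0.16 (quantile). In C1 and C3 it was -0.075 and -0.090 with the window of 41 and -0.055 and -0.047 with the mean of a gene's probes. It was 0.055 (limit of 1.5) and 0.075 (no filter) in C4, -0.057 in C3 and -0.063 in C6 with marked spots kept, and -0.044 in C6 on slide 1. Leaving out 1 array gave -0.060 to 0.065, -0.057 to 0.051, -0.076 to 0.093, -0.037 to 0.092, -0.034 to 0.055 and -0.033 to 0.026.

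Directions turned, none past the threshold, without patch correction for Med31 in C1 (-0.61), Med14 in C3 (-0.92) and C5 (0.59), Med1 in C4 (-0.33) and Med4 in C6 (0.86). The authors' series values turned the same 5 (-0.72, -0.93, 0.50, -0.28 and 1.09), Med1 in C1 (-0.12), Med14 in C2 (-0.098) and Med24 in C3 (-0.038). The mean of a gene's probes turned Med1 (-0.18) and Med16 (2.03) in C1, Med14 in C2 (-0.43) and C3 (-0.17), Med24 (-0.047) and Med16 (0.53) in C3 and Med1 in C4 (-0.14). The limit of 0.5 turned Med23 in C1 (0.021), the window of 11 Ccnc in C6 (-0.60), slide 1 Med14 in C4 (0.074) and Cdk19 in C5 (-0.032), and slide 2 Med16 (0.0047) and Med23 (0.14) in C1. The cause was not tested.

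Chosen after seeing the data, marked spots kept in the unaveraged fit called 304, 4, 2, 55 and 35 genes, with medians of -0.034, 0.068 and -0.050 in C3, C4 and C6 and Ptn at 3.55, past the threshold. Leaving out EGFP replicate 2 and Ptn_VP64 replicate 2 together called 2 genes in C4 and 2 in C5, with a median of -0.047 in C3. Each other probe alone turned Med1 (-0.59 and -0.041) in C1, Med24 in C3 (-0.19) and C5 (0.093), Med16 in C3 (0.17), Med14 in C4 (0.073) and Ccnc in C6 (-0.79). Signal near background limits Med13, saturation Med16, and spots lost to marks and patches the other members without a test. Every test is limited by having at most 2 samples a group.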
